A study of Mus musculus with 42 samples.

Results

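Terminal tissue-resident natural killer (trNK) cells of the mouse uterus were taken here as single cells with late granzyme transcripts and transcripts of Scin, Epas1 and Ctsg. These 3 genes were taken as marks of a late stage. They do not set non-dividing cells apart: a separate limit on proliferation genes removed 630 cells that met the rest of the gate. A cell was a member if fewer than 10% of its unique molecular identifiers (UMIs, 1 per captured RNA molecule) were mitochondrial and if it held at least 3 UMIs of Scin, Epas1 and Ctsg together and at least 10 of Gzmd, Gzme, Gzmf and Gzmg together. It also had to hold no Cd3e, at most 2 of C1qa, C1qb and C1qc, at most 2 of Dcn and Col1a2, and fewer than 5 of the proliferation genes Mki67, Top2a, Birc5, Ube2c and Ccna2. Of 15175 cells, 13084 were under the mitochondrial limit and 1756 were members, which was 13.4% of those 13084 cells (exact 95% binomial interval 12.8 to 14). All 7 marker genes are therefore high by choice, and their values in the cells are given as a description; the genes outside the gate are what the account below is about.

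The study followed uterine NK cells of wild-type C57BL/6 female mice, 8 to 12 weeks old, from the virgin state into gestation, where gd marks the gestation day. For the single-cell library, live CD45+NK1.1+NKp46+ uterine cells of virgin and gd8.5 mice were tagged by sample, mixed and sequenced together by whole-transcriptome capture in microwells. Bulk RNA-seq libraries, 2 a group, came from sorted trNK cells (CD49a+ and CXCR6-) of virgin, gd6.5 and gd8.5 uteri. Others came from 3 subsets of gd8.5 trNK cells sorted by CD55 and 4-1BB, which the labels call low, intermediate and high and the study calls trNK-V, trNK-D and trNK-T. Further bulk libraries came from trNK cells, per the study the trNK-V subset of gd6.5 mice, cultured with or without 20 ng/ml IL-21: one culture of 3 days included 1 µM Stattic, a STAT3 inhibitor, beside IL-21, and a time course sampled 0, 6, 24 and 72 h. The time course medium held 10 ng/ml IL-15, and the study's methods give the same IL-15 for its trNK cultures in general. None of these mice carried a transgene or a deletion, and whether the 2 libraries of a group came from separate mice is not stated, so p-values measure the spread between these libraries, which may be technical.

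Uterine trNK cells are innate lymphocytes that stay in the tissue, express CD49a (Itga1) and the transcription factor Eomes, and expand in the decidua around the implantation site. Their granules hold perforin, which opens target membranes, and granzymes, serine proteases that enter through it; mice have a block of granzyme genes, Gzmb to Gzmg, on chromosome 14, most of which human cells lack. Scin encodes scinderin, a calcium-dependent actin-severing protein, Epas1 encodes HIF-2α, an oxygen-regulated transcription factor, and Ctsg encodes cathepsin G, a granule protease best known from neutrophils and encoded next to the granzymes.

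Several features of the libraries bear on every value. The cell counts were deposited as one file labelled virgin and one labelled gd8.5, but both list the same 15175 cell numbers and they share no gene: the first holds 6821 genes and the second 28416. Joined, they form 1 table of 35237 genes and 83499186 UMIs, which holds no tag of the mouse group per cell, so cells of virgin and gd8.5 mice cannot be told apart and no comparison between them was made. The cells count as 1 sample: their values carry counting intervals only and no p. The 34 bulk libraries held 11862100 to 66468900 counts each. The second virgin library stood apart from the first (Gzmb 8742 against 173 RPKM, reads per kilobase of transcript per 1000000 counts). The second trNK-D library carried immunoglobulin transcripts (Igkc 21084 against 30.4 RPKM). Results that rest on either are also given without it where a fit was made.

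Of the 7 marker genes, 5 lie in 1 block. In the mm10 (GRCm38) gene models of the bulk tables, Ctsg (chr14:56099881-56102574), Gzme (chr14:56117626-56120625), Gzmd (chr14:56129556-56132608), Gzmg (chr14:56156582-56159579) and Gzmf (chr14:56205263-56211417) sit on the minus strand of 1 stretch of chromosome 14, chr14:56099881-56211417, 112 kb long, with Gzmn between Gzmg and Gzmf. Scin (chr12:40059769-40134228, minus strand) and Epas1 (chr17:86753700-86833410, plus strand) are on other chromosomes. All 5 neighbours count in the gate, which requires no single one of them. The 250 bases before the annotated start of each are shown to compare the marker genes of the block, from RefSeq on GRCm38.p6 and written 5′ to 3′ on the transcribed strand. Capitals mark matches to TGTGGT or its reverse complement ACCACA, the core letters bound by RUNX factors, and to TTCNNNGAA, the palindromic letters bound by STAT factors. The windows are, in the order of the genes on the chromosome:
Ctsg (chr14:56102575-56102824, minus strand): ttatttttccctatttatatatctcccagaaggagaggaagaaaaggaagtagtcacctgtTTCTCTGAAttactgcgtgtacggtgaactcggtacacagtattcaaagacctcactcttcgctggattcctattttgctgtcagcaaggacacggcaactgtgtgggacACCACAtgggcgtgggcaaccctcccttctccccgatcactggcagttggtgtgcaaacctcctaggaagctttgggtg
Gzme (chr14:56120626-56120875, minus strand): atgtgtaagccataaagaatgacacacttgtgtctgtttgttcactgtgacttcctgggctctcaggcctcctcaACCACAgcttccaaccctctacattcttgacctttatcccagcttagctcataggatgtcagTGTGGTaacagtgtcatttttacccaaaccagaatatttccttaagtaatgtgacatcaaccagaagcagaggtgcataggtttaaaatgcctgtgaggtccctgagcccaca
Gzmd (chr14:56132594-56132843, minus strand): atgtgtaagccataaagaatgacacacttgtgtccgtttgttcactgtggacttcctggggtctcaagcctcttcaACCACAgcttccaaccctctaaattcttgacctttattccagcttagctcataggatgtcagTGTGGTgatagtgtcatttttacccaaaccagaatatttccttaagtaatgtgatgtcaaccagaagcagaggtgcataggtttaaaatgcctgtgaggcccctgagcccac
Gzmg (chr14:56159580-56159829, minus strand): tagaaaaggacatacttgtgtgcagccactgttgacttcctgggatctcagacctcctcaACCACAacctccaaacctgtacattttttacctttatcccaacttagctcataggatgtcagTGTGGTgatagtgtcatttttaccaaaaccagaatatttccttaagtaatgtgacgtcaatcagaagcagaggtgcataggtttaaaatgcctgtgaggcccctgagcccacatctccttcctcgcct
Gzmf (chr14:56211408-56211657, minus strand): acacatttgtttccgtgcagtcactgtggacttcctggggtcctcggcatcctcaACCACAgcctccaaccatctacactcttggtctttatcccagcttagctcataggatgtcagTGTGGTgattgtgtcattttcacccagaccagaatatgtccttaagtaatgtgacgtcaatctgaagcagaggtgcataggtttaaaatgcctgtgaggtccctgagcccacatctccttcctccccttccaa

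Each of the 4 granzyme windows held 2 matches to the RUNX letters, one in each orientation and 62 bases apart in all 4 (the first 174 to 195 and the second 112 to 133 bases before the start). Of the 32851 promoter windows in the same RefSeq table, searched on both strands over the same 250 bases, 14% held at least 1 such match and 1.27% at least 2. The pair was not limited to the gate genes: the Gzmc window held 2 matches in the same orientations, 66 bases apart, the Gzmb window 2 in 1 orientation, 59 apart, and the Gzmn window none. The Ctsg window held 1 match, 79 bases before the start, and the only match to the STAT letters among the 5 windows, 189 bases before it; 7.02% of all promoters held that pattern. No window of the 5 held ACGTG, the core of hypoxia response elements (16.6% of all promoters), AGGTGT, a core of T-box sites (11.8%), or TGANTCA, the AP-1 letters (6.75%). Of these patterns no pair overlapped in the windows, and a match is a run of letters, not a bound site. The 4 granzyme windows were 75 to 94.8% identical to each other and their transcripts 83.5 to 90.4%. Reads and UMIs may thus have been split between them by the counting, and the value of each single granzyme is uncertain. The Ctsg transcript was 57.9 to 58.6% identical to theirs.

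Among the members the 3 genes of the first sum were not equally common. Scin was detected in 91.6% of the 1756 cells, Epas1 in 82.2% and Ctsg in 45.1%. In 594 cells (33.8%) all 3 were found, in 900 (51.3%) exactly 2 and in 262 (14.9%) only 1; the commonest pair was Scin with Epas1 (726 cells), against 128 with Scin and Ctsg and 46 with Epas1 and Ctsg. The sum of the 3 had a median of 7 UMIs and ranged from 3 to 80, and the sum of the 4 granzymes had a median of 353 and ranged from 10 to 3718. Ctsg was the most uneven of the 3 genes: its median was 0 UMIs per cell and its highest value 63. At the edge of the gate, 290 member cells held exactly 3 UMIs of Scin, Epas1 and Ctsg (median granzyme sum 250.5, median depth 8154 UMIs), and 387 cells that met every other condition held exactly 2 (205 and 7869). The granzyme limit lay where few cells were, with 7 members at 10 to 12 UMIs and 4 cells otherwise eligible at 7 to 9. The limit on proliferation genes removed 630 cells, the dividing counterparts, with 83 members at a sum of 4 and 61 removed cells at 5.

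For comparison 3 other groups were cut from the same table. Granzyme-high cells (1792) met the same exclusions and the same granzyme limit but held no UMI of Scin, Epas1 or Ctsg. Their granzyme sum had a median of 49 UMIs and a lower quartile of 17, near the 95th percentile of 15.95 in the B cells below. They were not chosen on Itga1 or Eomes. The leading genes and list results below are ratios to this mixed group, which includes cells with few granzyme UMIs. Virgin-type trNK cells (230) met the exclusions, held at most 2 granzyme UMIs and none of Scin, Epas1 or Ctsg, and carried at least 1 UMI each of Itga1 and Eomes; the name refers to this profile, not to the mice they came from. B cells (262; at least 5 UMIs of Cd79a, Cd79b and Ms4a1, no Ncr1 and no Cd3e) served as the background of NK transcripts in cells that should not express them, whether from free RNA or from doublets. Terminal trNK cells were deep, with a median of 10008.5 UMIs (841 to 44387) and 2909 genes, against medians of 5555, 2841.5 and 1819 UMIs in the other 3 groups. Since a deeper cell reaches a sum of 3 UMIs more readily, depth is part of what the gate selects. When every cell was first thinned to 3000 UMIs, 867 cells met the gate, of which 727 were members (42.2% of the 1723 members deep enough), and 65.6% of them had under 0.5% of UMIs from mitochondrial genes, against 24.0% of 2025 granzyme-high cells. With these cells, in a check added after the data were seen, 54 of the 60 leading genes described below stayed past 2-fold. The quality limits stated in the study, more than 200 and fewer than 2500 UMIs with under 10% mitochondrial, left 4338 of the 15175 cells here and 17 of the 1756 members; no upper limit was used. No doublet caller was applied.

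The natural killer identity of the members was checked on 4 genes outside the gate. Eomes stood at 395 in terminal trNK cells, 376 in granzyme-high cells and 597 in virgin-type cells, in CPM, the UMIs summed over a group per 1000000 UMIs of that group, which is the scale of all single-cell levels here. Itga1 (CD49a) stood at 245 in terminal trNK cells, 336 in granzyme-high cells and 700.3 in virgin-type cells. Ncr1 (NKp46) stood at 202 in terminal trNK cells, 404 in granzyme-high cells and 519 in virgin-type cells, and Klrb1c (NK1.1) at 147 in terminal trNK cells, 359 in granzyme-high cells and 700.3 in virgin-type cells. Itga1 and Eomes are high in the virgin-type cells by choice, since these had to hold a UMI of each. Against granzyme-high cells Eomes was near and the other 3 were lower, Ncr1 and Klrb1c were also below virgin-type cells, and 1564 of the 1756 members (89.1%) still held at least 3 UMIs of the 4 genes. Markers of other cells were mostly those of one gene per list. The 4 B cell markers summed to 203 in the members, 275 in granzyme-high cells and 11674 in B cells, 198 of the 203 being Ighm, and the T cell markers to 216 and 325, 206 of the 216 being Trbc2. The conventional NK cell list summed to 326 against 1346 in granzyme-high cells (Klra8 252 of the 326) and the ILC1 list to 5.9 against 17. In virgin-type cells these lists summed to 3722 and 40.5, the former above the 2516.5 of their own 4 identity genes. Macrophage markers (39.2 against 88.6), neutrophil markers (1.97 against 1.45, with 1 of 4 at 0), mast cell markers (49.6 against 40.2) and stromal markers (9.08 against 13.2) were low. Of the epithelial list only Epcam was found (99.7 against 73.8, the other two at 0), of the endothelial list only Pecam1 (377 against 292, the other at 0), and the hemoglobin list summed to 128 against 713. In all, 975 members (55.5%) held at least 3 UMIs of B, T, neutrophil, mast or erythroid cell markers; their part in the results was measured by leaving these cells out, as given below.

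A large share of the terminal trNK cells were almost without mitochondrial transcripts. The mitochondrial share of UMIs was under 0.5% in 1053 of the 1756 members (60%, exact 95% binomial interval 57.6 to 62.3). It was so in 280 of 1792 granzyme-high cells (15.6%), 308 of 630 dividing counterparts (48.9%), 1 of 262 B cells and 0 of 230 virgin-type cells, which allows a share of up to 1.59%. Over all 13084 cells under the limit it was 17.3%. The histogram of these shares has 2 separate heaps, with medians of 0.0651% and 3.68% on either side of 0.5% among the members. The 0.5% limit was set after the data were seen. In the bulk libraries of the sorted subsets the share of mitochondrial counts was 1.39 and 1.73% in trNK-V, 1.64 and 1.13% in trNK-D and 1.27 and 1.01% in trNK-T. A bulk library averages over its cells, so these shares do not tell how many cells of the lower heap it held.

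**Figure D1:**
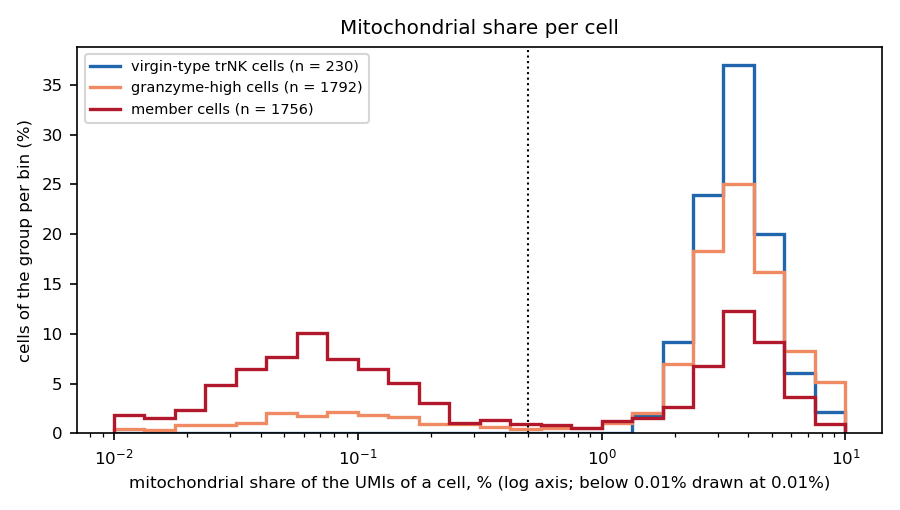
Share of UMIs from mitochondrial genes per cell (x axis, percent) against the percentage of cells of each group (y axis), for terminal trNK cells (members), granzyme-high cells and virgin-type cells, on a log axis. The dotted line stands at 0.5%. The members show a tall heap below the line, with 60% of their cells, and a second heap with a median of 3.68%, while the virgin-type cells have the second heap only.

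Cells of the lower heap also differed from the other members in nuclear transcripts and in their granule load. The lower heap held 1053 cells with a median of 8483 UMIs and a median granzyme sum of 189, against 13771 UMIs and 813 in the other 703; the median sum of Scin, Epas1 and Ctsg was 7 and 6. Malat1, a nuclear long non-coding RNA, stood at 62 against 653, Xist, the RNA that coats the inactive X chromosome, at 34.3 against 552 and Neat1, the RNA of nuclear paraspeckles, at 13.4 against 95.2. The stress chaperones Hspa1a (27.8 against 305) and Hspa1b (42.3 against 401), filamin A (Flna, 32.5 against 244), and the checkpoint receptor Ctla4 (13.7 against 100.4) were lower in the same cells. In granzyme-high cells the nuclear RNAs differed in the same direction, with Malat1 at 145 against 896 and Xist at 47.1 against 641. The median sum of the gate granzymes and the median depth did not. They were 62 and 5762 UMIs in the 280 cells of the lower heap, and 45 and 5457 in the other 1512. Of the granzymes outside the gate, Gzmb stood at 11260.3 over all granzyme-high cells and at 12412.5 without the lower heap. Gzmc stood at 7398 and 8045, and Gzma at 2148 and 2392. These genes were thus lower in the lower heap, the direction seen in the members. Gzmn was nearly unchanged, at 15.27 and 15.33. Of 3314 genes at the level limit, 476 (14.4%) differed more than 2-fold between the 2 heaps of members, with a median log2 ratio of 0.26 for cells under 0.5% over the others. Which of the 2 heaps a cell belongs to was therefore given beside the results that move with it, and its part in them was not tested beyond leaving the lower heap out. In the sorted subsets Malat1 was lower in trNK-T than in trNK-V, at 337 and 179 RPKM against 672 and 706 (log2 difference -1.42, SE 0.36, adjusted p = 0.0259). The trNK-D libraries, at 580 and 327, overlapped those of trNK-T. Xist stood at 7.71 and 6.71 RPKM in trNK-T, 9.65 and 8.02 in trNK-D and 9.66 and 12.6 in trNK-V. The part of the lower heap in these bulk values was not tested.

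Of 20 granule and killing genes at the level limit 11 were past 2-fold lower in the cells of the lower heap and 0 higher, and of 19 endoplasmic reticulum stress genes 16 were lower and 0 higher, where 13.8% of all 3314 genes were past 2-fold lower and 0.604% higher. Class I genes had 8 of 10 lower, residency and homing genes 6 of 7, and NK receptors and adaptors 6 of 10. Hypoxia and glycolysis genes (12) and transcription factors (12) had none past 2-fold in either direction. Gzmb stood at 3737 against 10969.5, Gzmd at 11054 against 22786, calreticulin (Calr) at 1438 against 3513 and the chaperone Hsp90b1 at 1014 against 2853. Higher there were Scin (506 against 261), Epas1 (309 against 158), Basp1 (798 against 364), the metallothionein Mt2 (2264 against 1098), the ferritin light chain Ftl1 (2031 against 911) and Cdkn1a (147 against 58.2). Ctsg was the exception among the first 3 marker genes, at 165 against 216.

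**Figure D2:**
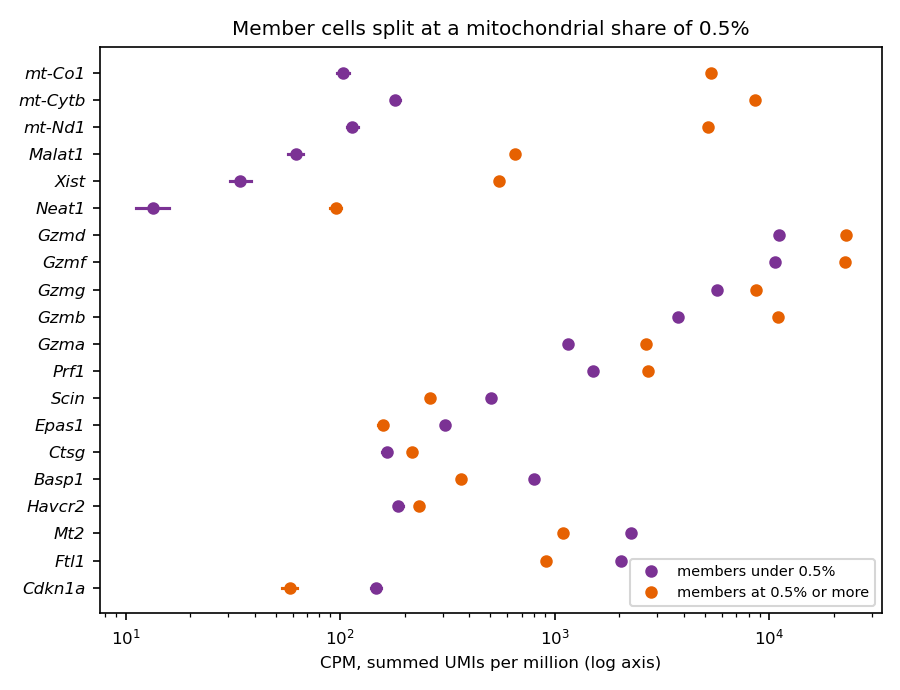
Level in CPM (x axis, log scale) of 20 genes in member cells with a mitochondrial share under 0.5% and in the other members, with exact 95% Poisson intervals as bars. Mitochondrial genes, Xist, Malat1 and the granzymes shown lie to the left in the cells under 0.5%, and Basp1, Mt2 and Ftl1 to the right.

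Against granzyme-high cells, terminal trNK cells held more transcripts of Tdrd9, Basp1, Havcr2 and the metallothionein genes Mt1 and Mt2, and fewer of the chemokine genes Xcl1, Ccl3, Ccl4 and Ccl5 and of the receptor gene Cd7. The 30 genes named as leading higher were those with the largest ratios among 2976 genes at 50 CPM or more in the members. Their ratios were 2.5 to 19.5. Of all 6042 genes at 20 or more in either group, 1.56% were past 2-fold higher and 4.87% past 2-fold lower. Tdrd9, a helicase known from small-RNA silencing in germ cells, led the list at 60.4 in terminal trNK cells, 3.09 in granzyme-high cells and 2.61 in virgin-type cells, a ratio of 19.5-fold (95% counting interval 13.9 to 28.4). Basp1, a lipid-anchored protein of the inner cell membrane, stood at 572 in terminal trNK cells, 78.5 in granzyme-high cells and 27.4 in virgin-type cells (7.29-fold, 95% counting interval 6.8 to 7.82). Havcr2, which encodes the inhibitory receptor TIM-3, stood at 211 in terminal trNK cells, 49.2 in granzyme-high cells and 5.23 in virgin-type cells (4.28-fold, 95% counting interval 3.92 to 4.69). In each of these the members were the highest of the 3 groups.

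The metallothioneins Mt2 (1657 against 341, 4.86-fold) and Mt1 (1615 against 517, 3.12-fold) and ferritin light chain Ftl1 (1448 against 517, 2.8-fold) were higher than in granzyme-high cells. Among the genes of membrane and cytoskeleton were the annexins Anxa3 (140.0 against 24.9, and 0 in virgin-type cells) and Anxa5 (305 against 119), calcium-dependent binders of membrane lipids. With them were the actin binders Avil (362 against 140.3) and Tmsb15a (1243 against 438), and the tubulin Tubb6 (123 against 44.7). The desmosomal cadherin Dsc2 (188 against 51.4), the membrane-scission protein Dnm3 (50.2 against 16.3) and the Golgi regulator Arfgap3 (84.1 against 33.6) were also in the list. Channels and receptors were Aqp9, which carries water and glycerol (56.2 against 13.6), the antiviral membrane protein Ifitm1 (1995 against 623) and Sh2d1b2, an adaptor of SLAM-family receptors on NK cells (301 against 85).

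Also in the list were Asns, asparagine synthetase (133 against 42), Hmgcs1, an early enzyme of sterol synthesis (252 against 98.3), and Cdkn1a, the cyclin-dependent kinase inhibitor p21 (101 against 38.5). Trp53i11 (57.9 against 17.1) was higher still in B cells, at 129, a level that the members did not reach. The others were the ubiquitin ligase receptor Klhdc2 (113 against 44.1), the matrix glycoprotein Emilin2 (75.6 against 29), the small GTPase Rasd2 (69.9 against 24), Sh2d5 (104 against 32.3) and Fam178b (109.9 against 34.2). Last came the predicted genes Gm8961 (99.4 against 17.6), Gm50375 (137 against 29.3) and Gm44040 (59.6 against 19.4). All 60 leading genes, higher and lower, stayed past 2-fold among cells of 4000 to 8000 UMIs in both groups and without cells over 15000 UMIs. Without cells holding markers of other cell types the number was 59 of 60, the exception being Igkc (log2 ratio -0.88). When cells with a mitochondrial share under 0.5% were left out of both groups it was 58 of 60, the exceptions being Cdkn1a, at 58.2 against 36.2, and Arfgap3, with a log2 ratio of 0.98.

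**Figure D3:**
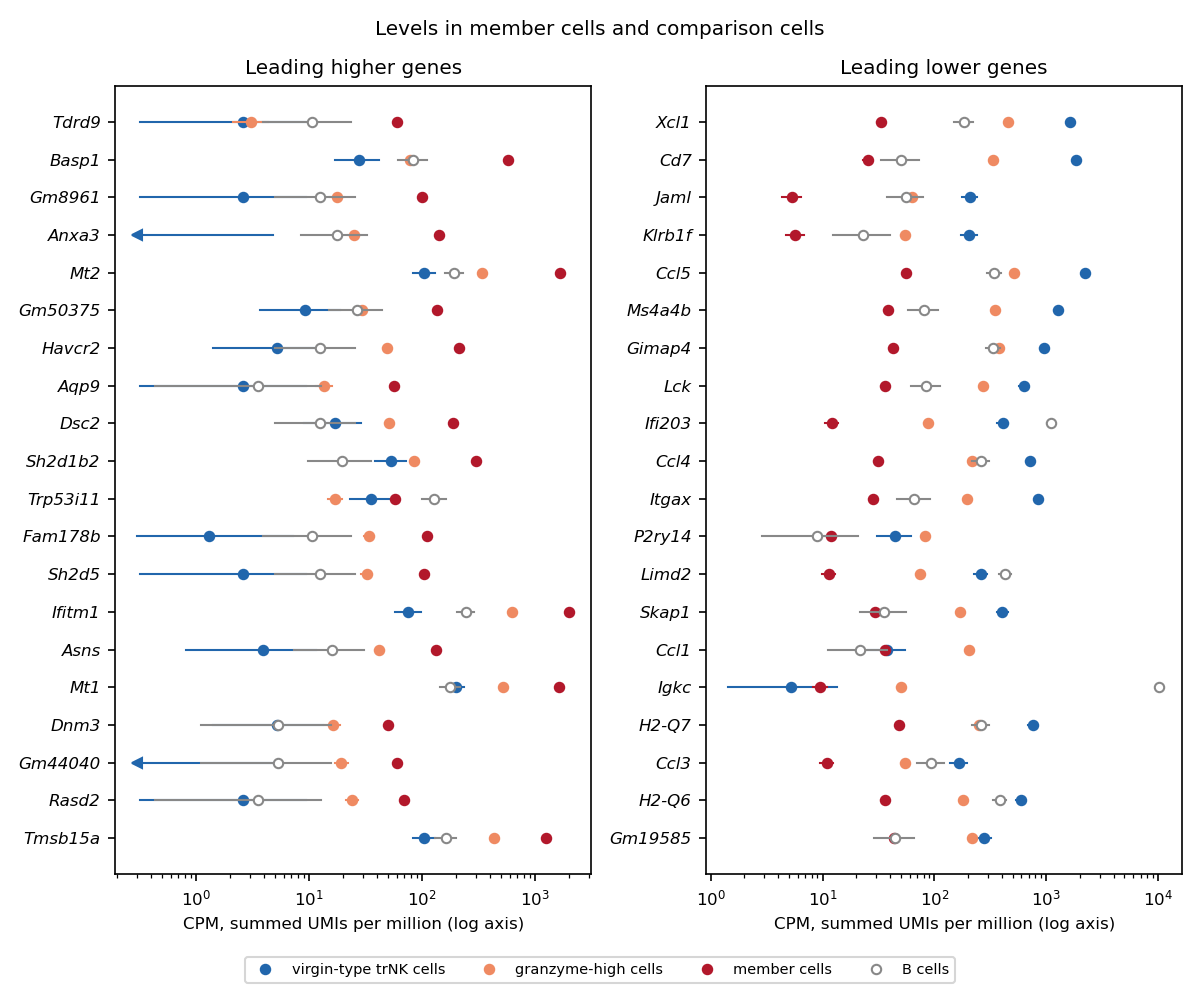
Level in CPM (x axis, log scale) of 20 leading higher genes and 20 leading lower genes in virgin-type, granzyme-high, terminal trNK and B cells, with exact 95% Poisson intervals. A triangle at the left edge marks a level of 0. Terminal trNK cells lie to the right of the granzyme-high cells in the higher genes and to the left in the lower genes, and for Trp53i11, Ifi203, Limd2 and Igkc the B cells lie furthest right.

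The 30 leading lower genes were those with the smallest ratios, by the same rule applied to levels in granzyme-high cells. Xcl1, the chemokine that attracts cross-presenting dendritic cells, stood at 33.2 in terminal trNK cells, 457 in granzyme-high cells and 1624 in virgin-type cells, 13.7-fold lower in the members than in granzyme-high cells. Ccl5 (56 in terminal trNK cells, 516 in granzyme-high cells and 2228 in virgin-type cells) and the inflammatory chemokines Ccl4 (31.3 against 217 in granzyme-high cells) and Ccl3 (10.9 against 54.3) followed. Ccl1 was lower too (36.3 against 203, with 37.9 in virgin-type cells). Cd7, an immunoglobulin-family receptor of early NK and T cells, stood at 25.3 in terminal trNK cells, 336 in granzyme-high cells and 1853 in virgin-type cells. Apart from Ccl1, these genes were lowest in the members and highest in virgin-type cells.

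Other surface genes in the list were Jaml (5.35 against 62.6), an adhesion receptor, and the C-type lectins Klrb1f (5.7 against 54.4) and Klrk1, the activating receptor NKG2D (61.7 against 249). Further ones were Itgax, the integrin CD11c (28 against 195), Ms4a4b (38.1 against 349), Cd72 (12.5 against 53) and the nucleotide-sugar receptor P2ry14 (11.9 against 82.5). Signalling genes were the kinase Lck (35.9 against 272), its partner adaptor Skap1 (29.4 against 168), the lymphocyte GTPases Gimap4 (42.2 against 382) and Gimap3 (46.8 against 228), Limd2 (11.4 against 74) and Slfn2 (14.1 against 59.5). The immediate-early genes Fos (31.8 against 151) and Dusp1 (16 against 69.8) and the class I genes H2-Q7 (48.2 against 252) and H2-Q6 (36 against 178), which are near copies of each other, were lower as well. The rest were Trdc (24.7 against 116), the pseudogene Klra13-ps (66.1 against 304), Gm19585 (43.9 against 217) and Gm26917 (92.6 against 458). Ifi203 (12.1 against 86.8), Ctss (24.7 against 104) and Igkc (9.48 against 50.6) were higher in B cells, at 1103, 961 and 10215.

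Detection was compared at equal depth by thinning each cell to 2000 UMIs, which left 1747 members, 1525 granzyme-high, 168 virgin-type and 105 B cells; the median number of genes per thinned cell was then 1044 in the members and 1062 in granzyme-high cells. Havcr2 was found in 29.9% of terminal trNK cells, 7.08% of granzyme-high cells, 1.79% of virgin-type cells and 0% of B cells (unthinned 72.3, 17.5, 1.74 and 1.91%). Basp1 was found in 57.1% of terminal trNK cells, 10.4% of granzyme-high cells, 2.98% of virgin-type cells and 8.57% of B cells (unthinned 81.8, 20.3, 6.96 and 6.87%). Thus both stayed more frequent in terminal trNK cells at matched depth. Cd7 was found in 4.18% of terminal trNK cells, 30% of granzyme-high cells, 86.3% of virgin-type cells and 8.57% of B cells (unthinned 13.6, 43.4, 88.3 and 7.25%). Il21r, the receptor of IL-21, was found in 0.744% of terminal trNK cells, 6.62% of granzyme-high cells, 14.9% of virgin-type cells and 21% of B cells (unthinned 3.59, 15.7, 28.3 and 19.8%), a share that in the members was below that of B cells. Eomes was found in 54% of terminal trNK cells, 47.3% of granzyme-high cells, 75.6% of virgin-type cells and 9.52% of B cells, the virgin-type cells having been chosen on it. Tnfrsf9, which encodes 4-1BB, was found in 81.5% of terminal trNK cells, 80.9% of granzyme-high cells, 56.5% of virgin-type cells and 18.1% of B cells. The exact 95% binomial intervals of the first 2 shares, 79.6 to 83.3% and 78.9 to 82.9%, overlap. Gzmd was found in 64.8% of thinned B cells, and the parts of free RNA and of doublets with NK cells in this were not tested. The granzyme sum of B cells had a median of 3 UMIs, a 95th percentile of 15.9, above the gate limit of 10, and a highest value of 318, and the deepest B cell held 14359 UMIs.

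Levels of several genes followed the sum of Scin, Epas1 and Ctsg among cells that met the exclusions and the granzyme limit, from 0 through 1 to 2, 3 to 4, 5 to 9, 10 to 19 and at least 20 UMIs (1792, 1011, 506, 680, 435 and 135 cells). The first of these bins is the granzyme-high group, and the last 4 together are the members. Havcr2, Basp1, Mt2 and Xcl1 are leading genes, picked by the ratio between these 2 groups. Their direction from the first bin to the member bins was therefore fixed by that choice. Havcr2 stood at 49.2, 97, 151, 188, 249.6 and 304 in these 6 bins, Basp1 at 78.5, 173, 377, 525, 700.3 and 804.8 and Mt2 at 341, 600.3, 1114, 1493, 1924 and 2609.5. Prf1, perforin, stood at 1388, 1670.0, 1807, 1926, 2276 and 3049.9, and Spp1, osteopontin, at 2299, 2813, 2757, 3247, 3905 and 5340.0. Xcl1 went the other way, at 457, 145, 56.7, 26.4, 27.6 and 19.2, and Gzmb stood at 11260.3, 9809, 8812, 7081, 7046 and 7152. Depth and mitochondrial share moved along the same bins: the median UMIs were 5555, 7514, 8469, 9199.5, 11407 and 16555, and the median mitochondrial share 3.32, 2.82, 0.231, 0.124, 0.0939 and 0.678%. The median sum of the 4 gate granzymes rose along the bins too, at 49, 173, 254.5, 296.5, 456 and 1134 UMIs. The bins share 1 library and are a description.

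Within the members, the variance over the mean was largest in granzyme and mitochondrial genes, the former including the 4 gate granzymes and the latter following the heaps above. After thinning 1678 members to 4000 UMIs, the variance over the mean (Fano factor) had a median of 1.31 over 577 genes with a mean of at least 1 UMI. It was 54.1 for Gzmf, 34.4 for Gzmd, 23.1 for Gzmb, 23 for Gzmg, 19.3 for Gzmc, 16 for Gzma and 15.7 for Gzme. Of the mitochondrial genes it was 26.8 for mt-Cytb, 17.5 for mt-Co1, 16.6 for mt-Nd1, 15.7 for mt-Nd4 and 14.3 for mt-Nd2. Outside these groups it was 16 for Tmsb4x, which encodes the actin-binding thymosin beta 4, 14.4 for Spp1, 14.2 for Mt2, 10.9 for Actb, 10.3 for Ifitm1 and 9.30 for Mt1. This measure favours genes with a high mean and does not rank the spread relative to the mean. Tmsb4x, with a mean of 134 UMIs, and Gzma, with 7.23, both had 16.

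Whether the sorted trNK-T libraries carry the profile of these cells was asked of bulk libraries that the cell gate did not use. Scin stood at 62.2 and 85.8 RPKM in trNK-T, 18 and 11.3 in trNK-D and 2.23 and 4.51 in trNK-V. Epas1 stood at 10.3 and 11.6 RPKM in trNK-T, 0.526 and 0.66 in trNK-D and 0.0366 and 0.295 in trNK-V. Ctsg stood at 77.3 and 62.4 RPKM in trNK-T and at 0 in all 4 other libraries. For all 3 genes both trNK-T libraries lay above every trNK-D and trNK-V library. Against trNK-V, Scin (log2 difference 4.46, SE 0.43, adjusted p = 0.00213) and Epas1 (log2 difference 6.05, SE 0.82, adjusted p = 0.0045) were higher in trNK-T by edgeR's quasi-likelihood test. Ctsg, at 0 in both trNK-V libraries, was at least 354-fold higher, taking 3 counts per library as the floor. Against trNK-D, Scin, Epas1 and Ctsg were called higher (Scin log2 difference 2.33, adjusted p = 0.0455, Epas1 log2 difference 4.20, adjusted p = 0.0463, and Ctsg at least 486-fold), a comparison that shares the trNK-T libraries with the first. The calls against trNK-D were lost for Scin and Epas1 without any 1 of the 4 libraries and for Ctsg without the second trNK-T library. Epas1 and Ctsg passed the level filter only through trNK-T, where they are high. With no filter on level both were called in both comparisons too. In bulk, fewer cells of a type and less RNA per cell cannot be told apart.

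The 4 late granzymes took 1.26 and 1.47% of all counts in trNK-T, 0.143 and 0.125% in trNK-D and 0.00504 and 0.0299% in trNK-V. Gzmd stood at 4868 and 5865 RPKM in trNK-T, 733 and 464 in trNK-D and 7.46 and 147 in trNK-V, and Gzme at 3503 and 4379 RPKM in trNK-T, 353 and 325 in trNK-D and 46.5 and 65.5 in trNK-V. Gzmf stood at 3517 and 3351 RPKM in trNK-T, 402 and 529 in trNK-D and 0.353 and 27.7 in trNK-V, and Gzmg at 1579.6 and 2164 RPKM in trNK-T, 38.3 and 22.9 in trNK-D and 0.285 and 78.7 in trNK-V. Both trNK-T libraries were above the other 4 for each granzyme. All 4 were called higher than in trNK-V (Gzmd log2 difference 6.11, adjusted p = 0.0154, Gzme log2 difference 6.14, adjusted p = 0.000273, Gzmf log2 difference 7.93, adjusted p = 0.0126, Gzmg log2 difference 5.56, adjusted p = 0.0437). By edgeR and limma-voom only Gzme of the 4 was called higher than in trNK-D (edgeR log2 difference 3.53, adjusted p = 0.00514, with adjusted p = 0.167, 0.225 and 0.117 for Gzmd, Gzmf and Gzmg), and DESeq2 called Gzmg as well (adjusted p = 0.0273). Without the second trNK-T library Gzmd, Gzmf and Gzmg were no longer called against trNK-V, nor Gzme against trNK-D, and without the first trNK-T library Gzmg was not called. Between trNK-D and trNK-V, Gzme was the 1 gate gene of 7 that edgeR and limma-voom called (edgeR log2 difference 2.61, adjusted p = 0.0217), a call lost without either trNK-V library or the second trNK-D library. DESeq2 also called Scin and Gzmf there (adjusted p = 3.66e-05 and 0.0394). By edgeR without the second trNK-V library Gzmd and Gzmf were called too (adjusted p = 0.0332 and 0.0095).

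**Figure D4:**
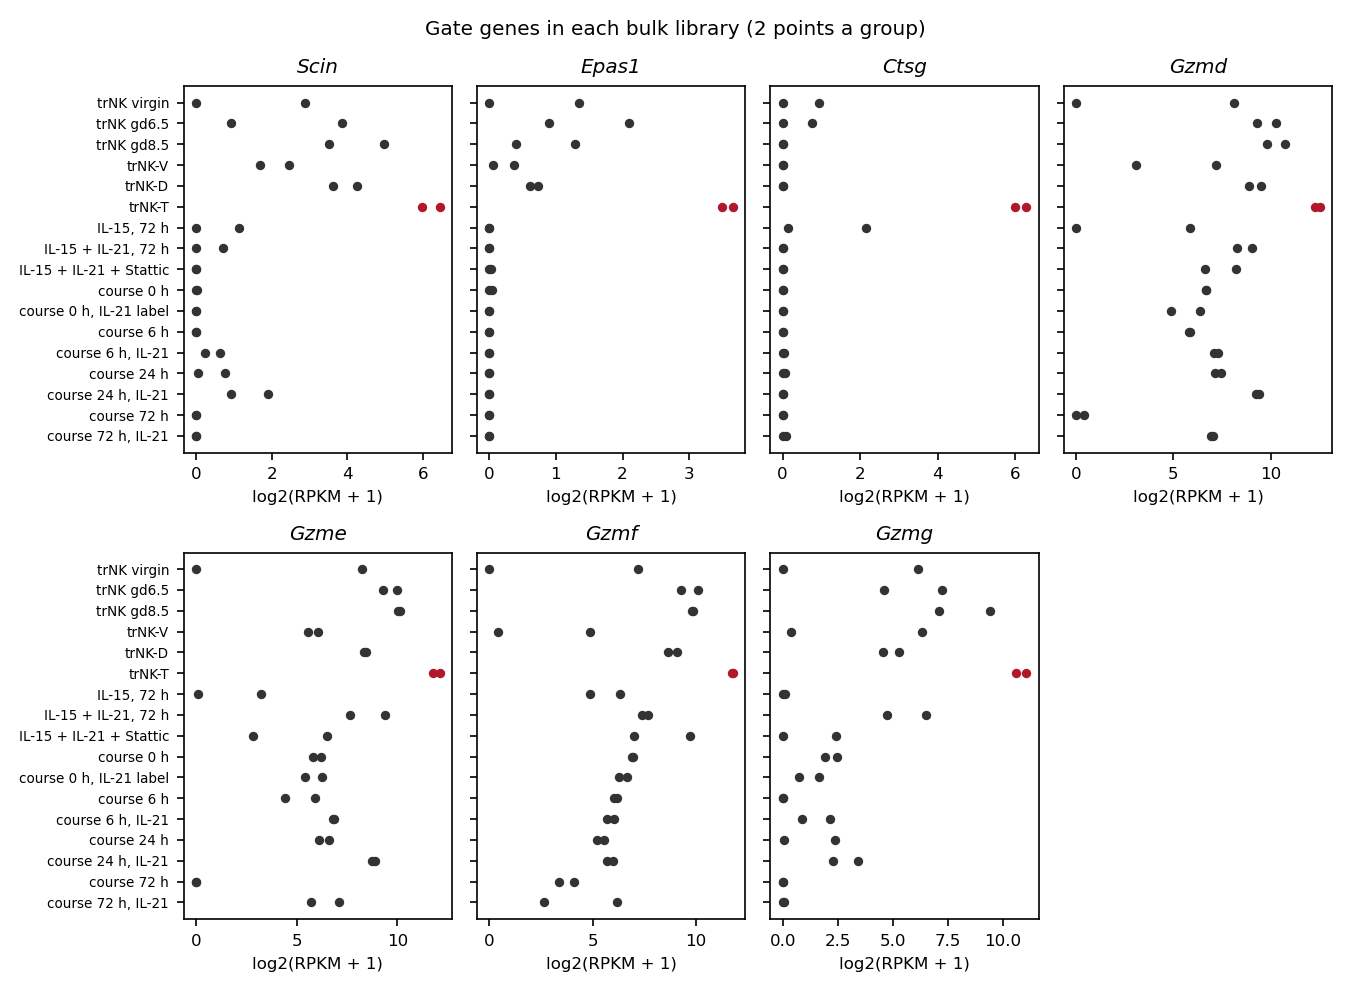
Level of the 7 gate genes, as log2(RPKM + 1), in each of the 34 bulk libraries by group, with the trNK-T libraries in red. For every gene the 2 trNK-T libraries are above the trNK-V and trNK-D libraries, and no cultured library is above 3.42 RPKM for Scin, Epas1 or Ctsg.

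Of the 30 leading higher genes, 29 matched a bulk identifier. Of these 29, 28 were higher in both trNK-T libraries than in both trNK-V libraries, where 18% of 24100 genes with a count had that order. The exception was Klhdc2 (7.94 and 9.74 against 10.4 and 6.6 RPKM). Of the 29 genes, 18 exceeded 10 RPKM in both libraries of a subset and were tested, 15 of them called higher (adjusted p under 0.05 and more than 2-fold, as were 8.07% of all 4682 genes tested). Of these 15, 7 passed that filter only through trNK-T, among them Anxa3, Havcr2, Ifitm1, Asns, Gm44040 and Arfgap3. Those 7 entered the test through the group where they are high, so their adjusted p below are a description only. The 15 are therefore given as values and not as a share. With no filter on level 25 of the 29 were called higher, against 3.8% of 26242 genes. Of the 30 leading lower genes, 28 were lower in both trNK-T libraries (23.5% of all genes) and 23 were called lower (13.1% of genes tested), while Ccl1 and P2ry14 were called higher. Without the second trNK-V or the second trNK-T library 9 of the leading higher genes were called higher, and 10 without either of the other 2. The choice of genes came from the cells, not from these libraries.

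Havcr2 stood at 43.8 and 84.8 RPKM in trNK-T, 0.707 and 3.79 in trNK-D and 0.357 and 4.87 in trNK-V. Both trNK-T libraries lay far above the other 4, and the difference from trNK-V was called (log2 difference 4.62, SE 1.24, adjusted p = 0.0304), that from trNK-D not (adjusted p = 0.0942). The call was lost without either trNK-T library or the first trNK-V library. Mt1 stood at 970.3 and 481 RPKM in trNK-T, 357 and 241 in trNK-D and 16 and 23.7 in trNK-V, with trNK-D between the other subsets and no overlap (log2 difference 5.20, SE 0.45, adjusted p = 0.00176 against trNK-V). Anxa3 stood at 14.1 and 17.7 RPKM in trNK-T, 1.53 and 1.05 in trNK-D and 0 and 0 in trNK-V, at least 284-fold higher in trNK-T than in trNK-V. It passed the level filter only through trNK-T and was the 1 leading higher gene called against trNK-D (log2 difference 3.62, SE 0.39, adjusted p = 0.0259, where 0.342% of genes tested were called higher). That call was lost without any 1 of the 4 libraries. Ifitm1 stood at 504 and 909 RPKM in trNK-T, 9.32 and 212 in trNK-D and 4.68 and 16.4 in trNK-V (log2 difference 6.07, SE 1.48, adjusted p = 0.023 against trNK-V), with the trNK-D libraries 1 low and 1 high. Its call was lost without either trNK-V library or the second trNK-T library, and like Havcr2 it passed the level filter only through trNK-T.

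The further leading higher genes called against trNK-V were Avil (93.9 and 99.2 against 1.39 and 8.53 RPKM, log2 difference 4.28, adjusted p = 0.00885), Hmgcs1 (37.4 and 51.1 against 8.79 and 5.39, log2 difference 2.65, adjusted p = 0.003), and Asns (37 and 39.9 against 7.51 and 1.93, log2 difference 3.03, adjusted p = 0.0175). So were Dsc2 (47.4 and 10.8 against 1.13 and 1.82, log2 difference 4.31, adjusted p = 0.00845), Tubb6 (128 and 149 against 16.9 and 44.6, log2 difference 2.17, adjusted p = 0.0316), and Arfgap3 (13.5 and 15.4 against 2.78 and 2.61, log2 difference 2.42, adjusted p = 0.00373). Others were Gm44040, Tmsb15a, Anxa5 and Ftl1, the last 3 with log2 differences of 1.43, 1.10 and 1.05. Of the genes in this paragraph called so far, Asns, Arfgap3 and Gm44040 passed the level filter only through trNK-T. Sh2d1b2 (36.1 and 26.1 against 14 and 5.69, adjusted p = 0.084), Trp53i11 (adjusted p = 0.199) and Cdkn1a (13.7 and 12.2 against 5.78 and 10.9, adjusted p = 0.198) did not pass. Genes under the level filter were Tdrd9 (2.51 and 4.95 against 0 and 0.0395 RPKM), Basp1 (2.68 and 1.38 against 0.355 and 0.0354), Mt2 (14 and 6.45 against 0.11 and 0.121) and Aqp9 (3.57 and 3.66 against 0 and 0, at least 73.5-fold). The rest of these were Sh2d5, Fam178b, Rasd2, Emilin2, Dnm3, Gm8961 and Klhdc2. Tdrd9 and Basp1, which led in the cells, were thus low in bulk trNK-T, at no more than 4.95 and 2.68 RPKM. Of the calls above, that of Dsc2 was lost without the second trNK-V library and that of Anxa5 without the second trNK-T library. Asns and Tmsb15a lost theirs without the second trNK-V library or either trNK-T library, Tubb6 and Gm44040 without the first trNK-V library or either trNK-T library, and Ftl1 without either trNK-V library or the second trNK-T library.

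**Figure D5:**
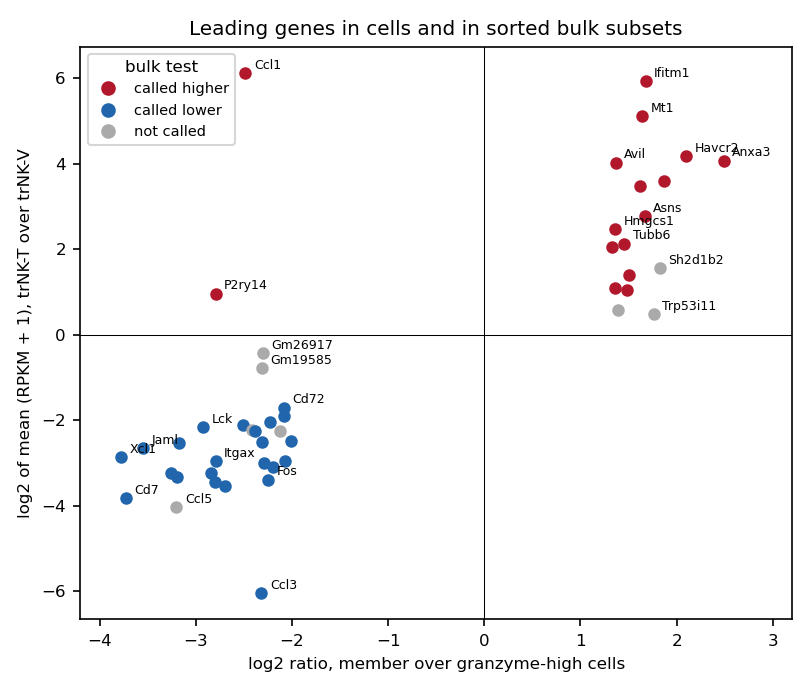
Each leading gene tested in bulk by its log2 ratio of CPM in terminal trNK over granzyme-high cells (x axis) and its log2 ratio of mean RPKM + 1 in bulk trNK-T over trNK-V (y axis), coloured by the call of edgeR. Apart from Ccl1 and P2ry14 the genes lie in the quadrants where both readouts point the same way; the genes were picked by the x axis, so no correlation was computed.

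Among the leading lower genes, Xcl1 stood at 253 and 218 RPKM in trNK-T, 1079.5 and 903 in trNK-D and 1732 and 1699 in trNK-V. Cd7 stood at 234 and 96 RPKM in trNK-T, 1059.8 and 823 in trNK-D and 2105 and 2628 in trNK-V. Both fell from trNK-V to trNK-T without overlap (Xcl1 log2 difference -2.86, SE 0.17, adjusted p = 0.000569, Cd7 log2 difference -3.84, SE 0.44, adjusted p = 0.00359). They were also lower than in trNK-D (Xcl1 log2 difference -2.08, adjusted p = 0.00514, Cd7 log2 difference -2.52, adjusted p = 0.0455). Against trNK-D, 9 of the 30 leading lower genes were called lower (1.41% of genes tested): Xcl1, Cd7, Jaml, Gimap4, Lck, Skap1, Gimap3, Klra13-ps and Ctss. These calls depended on which 1 library was left out and were fewest without the second trNK-T library. With no filter on level, 20 leading higher genes were called higher against trNK-D and 25 leading lower ones lower (0.648% and 1.59% of genes tested). Ccl5 was spread widely between libraries, at 404 and 9.66 RPKM in trNK-T and 2530.4 and 4319 in trNK-V (adjusted p = 0.0756). Dusp1 (117 and 10.2 against 228 and 384, adjusted p = 0.107) and Gm26917 (adjusted p = 0.159) were not called either. Gm19585 had an adjusted p of 0.0359 at a log2 difference of -0.78, which is under 2-fold. Igkc, at 2.49 and 2.38 RPKM in trNK-T, 30.4 and 21084 in trNK-D and 12.2 and 18.3 in trNK-V, was not called, and its trNK-D values rest on the 1 library named above. Against trNK-V, Ccl1 was higher in trNK-T, at 109.6 and 28.3 RPKM against 0 and 0 (at least 800.4-fold), and in trNK-D (at least 336-fold). In the cells it was lower than in granzyme-high cells and near its level in virgin-type cells, as given above. The references differ, so the orders in cells and bulk cannot be set against each other. P2ry14 was also higher in trNK-T than in trNK-V (8.28 and 6.41 against 3.5 and 3.05, log2 difference 1.17, adjusted p = 0.00833). Against trNK-D, however, P2ry14 was lower in trNK-T (edgeR log2 difference -0.83, adjusted p = 0.0853). Of the 2 calls against trNK-V, that of Ccl1 was lost without the second trNK-V library and that of P2ry14 without the first trNK-T library. Ccl1 passed the level filter only through trNK-T and P2ry14 only through trNK-D. Against trNK-D, Xcl1 lost its call without the second trNK-T library, and Cd7 without that library or either trNK-D library.

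Between trNK-D and trNK-V, 2 of the 18 leading higher genes tested were called higher, Anxa3 (at least 23-fold) and Mt1 (log2 difference 3.92, adjusted p = 0.0246), beside 0.256% of all genes tested. Both calls were lost without any 1 of the 4 libraries. At an unadjusted p under 0.05, 13 of the 30 leading lower genes were lower and 4 higher, beside 940 of all 4682 genes tested in either direction. None of the 30 leading lower genes was called lower by edgeR (0.0641% of genes tested), with 4 called lower by DESeq2 and 0 by limma-voom. One of them, P2ry14, was called higher (12.9 and 13 against 3.5 and 3.05 RPKM, log2 difference 2, edgeR adjusted p = 0.0246), a call lost without any 1 of the 4 libraries. P2ry14 passed the level filter only through trNK-D, where it is high, so this call is a description only. DESeq2 called 3 of the 30 higher. With no filter on level the numbers were 12 higher and 8 lower (1.29% and 0.503% of genes tested). The trNK-D libraries lay above trNK-V in both libraries in 12 of 29 leading higher genes (12.9% of all genes had that order) and below them in 23 of 30 leading lower genes (17.3%).

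The function lists were read against granzyme-high cells, where 4.58% of all 6042 genes were past 1.5-fold higher and 12.3% past 1.5-fold lower, with a median log2 ratio of -0.05, and in bulk trNK-T against trNK-V, where the median of all genes was -0.01, 8.07% of all 4682 genes were called higher and 13.1% lower. Over all lists together, without Cd55 and Tnfrsf9, which were used to sort the subsets, 46 of 199 genes tested were called higher in bulk, 3 of which passed the level filter only through trNK-T (Havcr2, Ccl1 and Anxa3), and 49 lower. With 1 library left out, both numbers were smallest without the second trNK-V or the second trNK-T library. Those fits also called the smallest shares of all genes in each direction, which bears on the counts of single lists below as well. Of the granule and killing genes, 21 reached 20 CPM, 2 being past 1.5-fold higher and 6 lower (median log2 -0.26), and 20 were tested in bulk, with 3 called higher and 2 lower. Prf1 stood at 2132 in terminal trNK cells, 1388 in granzyme-high cells and 567 in virgin-type cells. It stood at 844 and 984 RPKM in trNK-T against 266 and 226 in trNK-V (log2 difference 1.9, SE 0.22, adjusted p = 0.00351), so perforin was higher in both readouts, each against its own reference. Gzmb was lower in terminal trNK cells than in granzyme-high cells (7500.1 against 11260.3) and higher in trNK-T than in trNK-V (7896 and 13081 against 1389 and 1845 RPKM, log2 difference 2.70, adjusted p = 0.00422). The references differ, since granzyme-high cells were chosen on granzyme UMIs and trNK-V was not, so the 2 orders cannot be set against each other. Within the members Gzmb stood at 3737 in the heap of low mitochondrial share and 10969.5 in the other cells, and with cells under 0.5% left out of both groups its log2 ratio to granzyme-high cells was -0.18. Gzmc was near equal in the cells (7103 against 7398), or 10269 against 8045 with cells under 0.5% left out. It was higher in trNK-T (15668 and 11339 against 812.4 and 699, log2 difference 4.16, adjusted p = 0.00101). The smallest ratio in the list was that of Tnfsf10, the death ligand TRAIL (6.51 against 49.1), which fell in bulk (6.72 and 2.27 against 17.6 and 14.2, log2 difference -1.82, adjusted p = 0.034). The cathepsin Ctsw fell too (170.5 against 482 in the cells, bulk log2 difference -1.39, adjusted p = 0.0113). Gzmn, a further neighbour in the granzyme block whose transcript is 79.5 to 80.7% identical to those of the 4 gate granzymes, was 3.17-fold higher in the cells. Both lower calls of the list in bulk, Tnfsf10 and Ctsw, were lost without either trNK-V library or the second trNK-T library.

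Of the stage and co-stimulatory surface genes, 15 reached the level, 3 past 1.5-fold higher and 8 lower (median log2 -1.04), and of 13 tested in bulk besides the sort markers Cd55 and Tnfrsf9, 3 were called higher and 5 lower. Havcr2, Cd55 (729 against 353) and Il2ra, the high-affinity IL-2 receptor chain (177 against 102), were the 3 higher in the cells. Klrg1, a receptor of mature NK cells, stood at 654 in terminal trNK cells, 503 in granzyme-high cells and 205 in virgin-type cells and was higher in trNK-T (813 and 739 against 185 and 225 RPKM, log2 difference 1.92, adjusted p = 0.00176). Il21r stood at 3.68 in terminal trNK cells, 37.1 in granzyme-high cells and 109.8 in virgin-type cells, and fell in trNK-T (13.9 and 6.72 against 49 and 53.2 RPKM, log2 difference -2.31, SE 0.37, adjusted p = 0.00698). The checkpoint receptor Tigit (7.11 against 48.3, bulk log2 difference -1.54, adjusted p = 0.0307) and Cd27 (bulk log2 difference -4.08, adjusted p = 0.00256) fell too, and Icos, a co-stimulatory receptor, rose (bulk log2 difference 1.11, adjusted p = 0.0325). The bulk call of Icos was lost without any 1 of the 4 libraries, and that of Tigit without either trNK-V library or the second trNK-T library. In these fits 1 to 2 genes of the list were called higher and 3 to 6 lower.

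Most NK receptors and adaptors were below their level in granzyme-high cells, 14 of 17 at the level being past 1.5-fold lower and none past 1.5-fold higher (median log2 -1.57). In bulk 13 of 18 fell and 1, Fcgr3, the Fc receptor CD16, rose (144 against 98.6 in the cells, bulk log2 difference 1.17, adjusted p = 0.0206). The activating receptor Klrc2 (2.93 against 32.2, bulk 2.32 and 2.81 against 42.4 and 47.3 RPKM, log2 difference -4.13, adjusted p = 0.000569) had one of the smallest ratios. So had Cd226, DNAM-1 (2.27 against 33.9, bulk log2 difference -2.40, adjusted p = 0.0273), an activating receptor, and the inhibitory Klrc1, NKG2A (6.91 against 40.6, bulk log2 difference -3.77, adjusted p = 0.000494). The adaptor Fcer1g stood at 2751 against 3388 in the cells. Granzyme-high cells also carried more of the conventional NK cell list (1346 against 326 in the members), which shares Klra4 and Klra8 with the NK receptors. Its part in these ratios was not tested. Class I antigen presentation genes were lower as well, 8 of 11 past 1.5-fold (median log2 -0.99) and 4 of 11 called lower in bulk. B2m stood at 2265 against 4970.1 and the class I activator Nlrc5 at 8.42 against 34.5. With 1 library left out 11 to 12 of the NK receptors and adaptors were still called lower, but Fcgr3 was not called without the first trNK-V library or either trNK-T library, nor Cd226 without either trNK-V library or the second trNK-T library. The 4 class I genes called lower became 2 without the second trNK-V library and 1 without the second trNK-T library.

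Of the transcription factors, 24 reached the level, 3 higher and 12 lower (median log2 -0.51), with 1 of 16 called higher in bulk and 7 lower. Tcf7, the factor TCF-1 of early and memory-like lymphocytes, stood at 2.32 in terminal trNK cells, 27.6 in granzyme-high cells and 208 in virgin-type cells and fell in trNK-T (3.01 and 0.321 against 36 and 53.7 RPKM, log2 difference -4.72, adjusted p = 0.01). Tbx21 (T-bet) stood at 22.4 in terminal trNK cells, 78 in granzyme-high cells and 165 in virgin-type cells. It fell too (21.9 and 17.2 against 62.3 and 56.8, log2 difference -1.60, adjusted p = 0.00496), as did Tox (4.99 against 29.2, bulk log2 difference -3.20, adjusted p = 0.00408). The higher ones were Prdm1, which encodes BLIMP-1 (50.1 against 33.2), Batf (67 against 43.8) and Lef1 (62.5 against 36.3). With cells under 0.5% mitochondrial UMIs left out of both groups none of these 3 was past 1.5-fold, at 52 against 35.7, 46.7 against 39.7 and 50.9 against 36.3. Hif1a, the relative of Epas1 in oxygen sensing, was 158 against 138 in the cells and rose in trNK-T (22.2 and 25.6 against 10.1 and 9.76, log2 difference 1.27, adjusted p = 0.0054). Of the residency and homing genes 8 of 10 were lower and 0 higher (median log2 -0.92), with 4 of 11 lower in bulk, among them Itgax, Cxcr3 and Ccr2. The residency marker Cd69 stood at 119.6 against 174. Leaving out the second trNK-V library ended the call of Tcf7 and left 4 transcription factors lower, and leaving out the second trNK-T library ended that of Hif1a. Itgax was not called without either trNK-V library, nor Ccr2 without either trNK-V library or the second trNK-T library, and the homing genes called lower were 2 without the second trNK-V library and 7 without the first trNK-T library.

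Among secreted factors, 12 reached the level, 2 higher and 7 lower (median log2 -1.85), and in bulk 3 of 8 were called higher and 4 lower. Spp1 stood at 3566 in terminal trNK cells, 2299 in granzyme-high cells and 702 in virgin-type cells. In bulk it stood at 10388 and 12936 RPKM in trNK-T, 5539 and 4413 in trNK-D and 1185 and 903 in trNK-V, with no overlap between subsets. The difference was called in both comparisons (log2 difference 3.49, SE 0.21, adjusted p = 0.000569 against trNK-V, log2 difference 1.22, adjusted p = 0.0455 against trNK-D, the latter lost without any 1 of the 4 libraries). Among cells of 4000 to 8000 UMIs its log2 ratio of members over granzyme-high cells was 0.15, against 0.63 over all cells. Mif, a cytokine that macrophages respond to, was the other (413 against 257, or 317 against 230.5 with cells under 0.5% mitochondrial UMIs left out, bulk log2 difference 1.24, adjusted p = 0.00657). Ifng, interferon gamma, fell (6.26 against 36.5, bulk 20.2 and 21.9 against 47.5 and 94.7 RPKM, log2 difference -1.76, adjusted p = 0.0138). Vegfa, a growth factor of vessels, was 22.9 against 27.2 in the cells. Cytokine receptors and feedback genes had 0 of 17 past 1.5-fold higher and 9 lower (median log2 -0.63), and 1 of 14 called higher in bulk, Il12rb1, with 6 lower. Il12rb2 (12.1 against 37.2) and Cish, a feedback inhibitor of IL-15 signalling (24.2 against 60.2), had the smallest ratios in the cells. In bulk the call of Il12rb1 was lost without any 1 of the 4 libraries, and that of Ifng without the second trNK-V library or either trNK-T library. The 4 secreted factors called lower became 2 without the second trNK-V or the second trNK-T library, and the 6 cytokine receptors and feedback genes became 4 without the latter.

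Positive median log2 ratios in the cells were found for 4 lists, including that of the actin genes below. Of the hypoxia and glycolysis genes 6 of 20 were past 1.5-fold higher, 0 with cells under 0.5% mitochondrial UMIs left out, and none lower (median log2 0.29), and 7 of 14 were called higher in bulk with none lower (median log2 0.98). Fewer of these genes were called higher without the second trNK-V or the second trNK-T library, as were fewer of all genes tested. Pgk1, phosphoglycerate kinase, stood at 703 in terminal trNK cells, 445 in granzyme-high cells and 243 in virgin-type cells and at 213 and 273 RPKM against 69.1 and 66.2 (log2 difference 1.85, adjusted p = 0.00232). Endoplasmic reticulum stress genes differed less in the cells, 0 of 21 higher and 2 lower (median log2 0.17), while 13 of 20 were called higher in trNK-T and 2 lower (median log2 1.45). Sdf2l1, a folding cofactor, stood at 379.5 against 254 in the cells and 516 and 651 against 189.7 and 136 RPKM in bulk (log2 difference 1.84, adjusted p = 0.004). Most genes of this list were lower in the heap of low mitochondrial share, as given above, and with that heap left out of both groups 9 of 21 were past 1.5-fold higher in the members and 1 lower (median log2 0.56). Redox and metal genes had 4 of 13 higher and 0 lower (median log2 0.39), and 3 of 11 called higher in bulk, Mt1, Ftl1 and Prdx1. Prdx1 was not called without the second trNK-V or the second trNK-T library, nor Ftl1 without either trNK-V library or the second trNK-T library, so that 1 redox gene, Mt1, was left without the second trNK-V library. The endoplasmic reticulum stress genes called higher were 12 to 13 with 1 library left out.

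Of the cell death and survival genes 3 of 19 were higher and 2 lower (median log2 -0.05), with 3 of 17 higher in bulk and 2 lower. Cycs, cytochrome c (log2 difference 1.25, adjusted p = 0.00481), and Gadd45g (529.7 against 303, bulk log2 difference 2.07, adjusted p = 0.00926) rose in trNK-T. The survival genes Bcl2 (24.7 and 18.2 against 72.8 and 66 RPKM, log2 difference -1.69, adjusted p = 0.00505) and Mcl1 (log2 difference -1.06, adjusted p = 0.0448) fell. Mcl1 was no longer called without either trNK-V library or the second trNK-T library, nor Gadd45g without the latter, where 1 gene of the list was left in each direction. Actin, annexin and S100 genes split, 8 of 28 higher and 5 lower (median log2 0.11), with 8 of 26 called higher in bulk and none lower. Of these 8, Anxa3 passed the level filter only through trNK-T, and the number was 5 without the second trNK-V library and 3 without the second trNK-T library. Gsn, gelsolin, the relative of scinderin, stood at 40.3 against 13.7 in the cells and 11.8 and 21.7 against 13.9 and 2.57 RPKM in bulk (log2 difference 1.03, adjusted p = 0.309). Vimentin (Vim), at 87.2 against 286, had the smallest ratio of the list. Of the 4 identity genes, none was past 1.5-fold higher and 2 were lower (median log2 -0.73), and 1 of 4, Klrb1c, fell in bulk (log2 difference -1.70, adjusted p = 0.00518).

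With cells under 0.5% mitochondrial UMIs left out of both groups, in a check added after the data were seen, 3.58% of 6092 genes were past 1.5-fold higher in the members and 8.6% lower. Hypoxia and glycolysis genes then had 0 of 20 higher, against 6 with all cells, at the same median log2 of 0.29. NK receptors and adaptors had 12 of 17 lower and 1 higher, class I genes 7 of 11 lower, residency and homing genes 5 of 10 lower, and granule and killing genes 2 of 21 higher and 3 lower. Transcription factors had 0 of 25 higher and 13 lower, actin, annexin and S100 genes 4 of 28 in each direction (median log2 -0.09), and redox and metal genes 3 of 13 higher.

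Against trNK-D, 6 of 199 genes of these lists, without the sort markers, were called higher and 11 lower (0.342% and 1.41% of all genes tested). Without the second trNK-D library, which carried immunoglobulin transcripts, the numbers were 0 and 4, without the first 0 and 4, without the first trNK-T library 0 and 8, and without the second 0 and 0. NK receptors and adaptors had 5 of 18 called lower (Klrc1, Klrc2, Klra3, Klra4 and Klra9) and none higher. Endoplasmic reticulum stress genes had 3 of 20 called higher (Hsp90b1, 414 and 534 against 218 and 240.5 RPKM, log2 difference 1.04, adjusted p = 0.0466, Pdia6 and Creld2). Hif1a was called higher (22.2 and 25.6 against 10.1 and 11.8, log2 difference 1.12, adjusted p = 0.0455) and Stat4, a factor of IL-12 signalling, lower (12.6 and 11.9 against 36.2 and 28.5, log2 difference -1.40, adjusted p = 0.0389). Of the homing genes 2 of 11 were called lower, among them Cxcr3. Of all 4682 genes tested, 1071 had an unadjusted p under 0.05 in either direction. Granule and killing genes, with 3 higher and 4 lower at that p, had no call by edgeR or limma-voom, and DESeq2 called 1 higher and 2 lower. Cytokine receptors (0 higher and 8 lower at that p) and class I genes (0 and 8) had no call by edgeR or limma-voom, while DESeq2 called 4 and 2 lower. Hypoxia and glycolysis genes (6 and 0 at that p) had no call by any of the 3 tools, cell death genes (2 and 1) 1 in each direction by DESeq2, and redox and metal genes (2 and 0) 2 higher by DESeq2. Klrc1, Klrc2 and Cxcr3 lost their calls only without the second trNK-T library, and the other genes named here as called against trNK-D without any 1 of the 4 libraries.

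The 630 dividing counterparts, which met the same gate but for their proliferation genes, were deeper than the members (median 14331 UMIs). Havcr2 stood at 171 against 211 in the non-dividing members, Basp1 at 501 against 572, Mt2 at 1052 against 1657 and Prf1 at 1769 against 2132. Cdkn1a stood at 98.3 against 101, and Xcl1 at 79.3 against 33.2. Scin (342 against 378) and Epas1 (170.0 against 231) are gate genes in both.

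Against virgin-type cells, 16.4% of 6590 genes were past 1.5-fold higher in the members and 34.4% past 1.5-fold lower. By list, residency and homing genes had 0 of 14 higher and 13 lower, NK receptors and adaptors 1 of 17 higher and 15 lower, and class I genes 0 of 11 higher and 9 lower. Hypoxia and glycolysis genes had 12 of 20 higher and 1 lower, and endoplasmic reticulum stress genes 14 of 22 higher and 3 lower. Granule and killing genes had 4 of 21 higher and 5 lower. The conventional NK markers that virgin-type cells carried, as given above, differ along the same comparison, and their part in it was not tested.

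In trNK cells sorted without regard to subset, the gate genes were compared between gd8.5 and virgin uteri. Scin stood at 10.5 and 30.6 RPKM at gd8.5, 13.4 and 0.894 at gd6.5 and 0 and 6.4 in virgin mice. Epas1 stood at 0.325 and 1.43 RPKM at gd8.5, 3.27 and 0.855 at gd6.5 and 0 and 1.55 in virgin mice, and Ctsg at 0 and 0 RPKM at gd8.5, 0.68 and 0 at gd6.5 and 0 and 0.905 in virgin mice. Gzmd stood at 887 and 1670.2 RPKM at gd8.5, 1246 and 628 at gd6.5 and 0 and 280.2 in virgin mice, the second virgin library being the one that stood apart. For Scin and Gzmd both gd8.5 libraries were above both virgin libraries. Of the 5 gate genes tested, edgeR called 0, with 0 at an unadjusted p under 0.05 and 0 by DESeq2 or limma-voom. Without the second virgin library all 5, Scin and the 4 granzymes, were called higher at gd8.5 (5.18% of genes tested in that fit), and without the first virgin library 2 were (0.388%). Of the leading genes, 12 of the 29 matched higher ones and 29 of the 30 lower ones were tested. EdgeR called 0 of the former higher and 0 of the latter lower (0.0222% and 0.4% of genes tested). There were 2 and 10 at an unadjusted p under 0.05 in those directions, 2 and 5 called by DESeq2 and 0 and 0 by limma-voom. Of all 4504 genes tested, 638 had such an unadjusted p in either direction. Without the second virgin library leading genes were called in both of these directions, in a fit that also called a larger share of all genes higher. With no filter on level, and all libraries, 9 leading higher genes were called higher and 10 leading lower ones lower (0.809% and 1.32% of genes tested).

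The cultures were made to see what IL-21 does to trNK cells outside the uterus. After 72 h of the time course, Gzmd stood at 132 and 122 RPKM with IL-21 and 0 and 0.349 without, and Gzme at 134 and 50.8 with it and 0 in both libraries without. Gzme was at least 957-fold higher with IL-21, and both passed the test (adjusted p = 5.59e-05 and 3.24e-05). Gzmf, the third gate gene tested, did not, at 72 and 5.26 RPKM with IL-21 and 9.37 and 16.1 without (adjusted p = 0.31). The 4 gate granzymes took 0.0278 and 0.0266% of counts at 0 h without IL-21. At 24 h they took 0.112 and 0.103% with IL-21 and 0.0287 and 0.0241% without. At 72 h it was 0.0316 and 0.0169% with IL-21 and 0.00086 and 0.0015% without. At 72 h the libraries with IL-21 thus lay on either side of those at 0 h, and those without lay below. Mitochondrial counts at 72 h were 4.37 and 5.73% with IL-21 and 8.44 and 11.8% without. Scin and Epas1 were at 0 in both IL-21 libraries at 72 h, and Ctsg stood at 0.0529 and 0 RPKM. In trNK-T, from another experiment and a later day of gestation, the 3 genes stood above 10 RPKM in both libraries. Of the leading genes, 9 of the 29 matched higher ones and 27 of the 30 lower ones were tested. EdgeR called 0 of the former higher and 0 of the latter lower (6.57% and 1.51% of genes tested). There was 1 in each of these directions at an unadjusted p under 0.05, 1 and 0 by DESeq2 and 0 and 0 by limma-voom. With no filter on level 5 higher ones were called higher (4.79% of genes tested). At an unadjusted p under 0.05, 8 leading lower genes were higher with IL-21, beside 881 of all 3503 genes tested in either direction. Jaml (91.3 and 38.9 against 18 and 11.2 RPKM, log2 difference 2.03, adjusted p = 0.0083) and Ccl5 (9576 and 13973 against 2719.7 and 3478, log2 difference 1.89, adjusted p = 0.00361), both lower in terminal trNK cells, rose with IL-21. So did Spp1 (5179 and 5831 against 2573 and 1213, log2 difference 1.53, adjusted p = 0.0148), which was higher in terminal trNK cells, a call lost without the second IL-21 library.

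In the 3-day culture with the inhibitor arm, 11 leading higher genes and 27 leading lower genes were tested. EdgeR called 0 of the former higher with IL-21 and 0 of the latter lower (0.289% and 0% of genes tested). There were 7 and 6 at an unadjusted p under 0.05, 4 and 2 by DESeq2 and 0 and 0 by limma-voom. With no filter on level the numbers were 7 and 1 (0.498% and 0.188% of genes tested). In the other direction, DESeq2 called 5 leading lower genes higher with IL-21 and limma-voom 1. Of all 4159 genes tested, 381 had an unadjusted p under 0.05 in either direction. Scin stood at 0.629 and 0 RPKM with IL-21 and 0 and 1.19 without, Epas1 at 0 in all 4 libraries, and Ctsg at 0 in both with IL-21 and 3.42 and 0.106 without. Gzmd stood at 302 and 517 with IL-21, 0 and 57.1 without and 298 and 95.9 with IL-21 and inhibitor. Of the 4 gate granzymes, none was called with IL-21 by edgeR or limma-voom, and DESeq2 called Gzme and Gzmg (adjusted p = 0.0394 and 0.0147). When the inhibitor was added to IL-21, Cdkn1a was higher (223 and 227 against 86.4 and 75.8 RPKM, log2 difference 1.57, SE 0.31, adjusted p = 0.0442). P2ry14 was lower (19.1 and 18.4 against 59.9 and 56.8, log2 difference -1.54, adjusted p = 0.0395). These were the 2 leading genes called there, beside 1.8% and 1.15% of all genes tested. With no filter 2 leading higher genes were called higher and 3 leading lower ones lower (0.888% and 1.28%). Both calls were lost without any 1 of the 4 libraries and with the replicate number as a block. Spp1 stood at 31497 and 20120.5 RPKM with IL-21, 2295 and 1298 without and 2912 and 5305 with IL-21 and inhibitor (log2 difference 4.05, adjusted p = 0.0325 for IL-21, log2 difference -2.56, adjusted p = 0.0413 for the inhibitor). Both Spp1 calls were lost with the replicate number as a block, without the first IL-21 library, and without either library of the group that IL-21 was compared with. The 2 comparisons of this culture share the IL-21 libraries.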

How the data were processed

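Uterine NK cells were measured by single-cell and bulk RNA-seq. The single-cell counts deposited by the authors are UMIs per gene and cell from the BD Rhapsody whole-transcriptome pipeline (GRCm39, per the study's methods). The bulk counts deposited by the authors are reads per gene on mm10, from SMART-Seq HT libraries per the study's methods and, in the time course, a Vazyme single-cell amplification kit per the labels. Per the labels the aligner was HISAT2 2.1.0 and the counter featureCounts of Subread, while the study's methods name RSEM. The first virgin library lists 55573 genes, and the 54353 genes shared by all libraries of that experiment were used. Chromatin accessibility files were not used.

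From these counts, UMIs were summed per cell group and scaled to CPM, with exact Poisson, conditional ratio and binomial intervals at 95% (Python 3.11.15, SciPy 1.17.1), which cover counting error only. RPKM was computed from counts and gene lengths. Genes above 10 RPKM in both libraries of any group of an experiment were tested with edgeR 4.0.16 (quasi-likelihood, TMM scaling, all groups of the experiment in 1 fit, R 4.3.3), with Benjamini-Hochberg adjusted p under 0.05 and more than 2-fold as the call. Alternatives were DESeq2 1.42.0, limma-voom 3.58.1, relative log expression factors, no RPKM filter, each library left out, and the replicate number as a block. On simulated data for trNK-T against trNK-V, 200 of 200 genes changed 4-fold were recovered, with 0 false calls among 4383 genes run. The simulated spread between libraries was set by hand and only well expressed genes were changed. The result is thus a check of the code and does not show the power or the false calls in these libraries.

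Named genes were the gate genes, the 30 genes with the largest and the 30 with the smallest ratio of members to granzyme-high cells at 50 CPM or more (mitochondrial, gate and other-cell-type genes left out), and in each function list a few with the largest ratios in either direction or named in the study. In the paragraphs on the mitochondrial share, the bins and the spread between members, genes were chosen after their values were seen. Members and lists were chosen with earlier results of these data known. Of 294 list entries 16 had no column in the single-cell table, and 1 leading gene, Gm50375, matched no bulk identifier. Same-numbered bulk libraries deviated together in some pairs of groups and apart in others, and no label ties a number to a mouse or day, so the numbers were not used as pairs. The values of 3 named genes are not reported here, though counts over the lists include them.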

Additional observations from a re-analysis of the deposited data

Results flagged for a closer look

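For 3 leading lower genes the 2 IL-21 libraries stood below both control libraries in the 3-day inhibitor culture and above both in the time course at 72 h, and the difference between the cultures was not tested. On the scale of log2 of mean RPKM + 1, the IL-21 effect in the inhibitor culture minus that in the time course was -1.30 for Gimap4, a lymphocyte GTPase, which stood at 815 and 705 RPKM with IL-21 against 1246 and 980.2 without in the first culture and at 962 and 551 against 490.2 and 409 in the second. It was -1.52 for Itgax, the integrin CD11c, at 36.9 and 42.7 against 45.6 and 49.9 RPKM, and then at 34.6 and 20.7 against 8.1 and 13.8. It was -1.50 for Klrb1f, a C-type lectin receptor, at 103 and 87.6 against 196 and 233 RPKM, and then at 490.5 and 445 against 319 and 419.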

How the results depend on the processing

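The number of member cells, 1756, moved to 2143 and 1250 with a sum of Scin, Epas1 and Ctsg of at least 2 and 5, to 17 inside the UMI limits of the study, to 1617 below 5% mitochondrial UMIs, to 867 with the gate on thinned cells, to 781 without cells holding markers of other cell types and, in an alternative added after the data were seen, to 703 without cells under 0.5% mitochondrial UMIs. Of 60 leading genes 54 to 60 stayed past 2-fold in 7 other choices of cells and 0 changed direction. Over 271 single-cell ratios, 1164 recomputed values moved by more than the counting error and 733 did not. Some small differences in the function lists changed direction. With cells under 0.5% mitochondrial UMIs left out, the log2 ratio went from -0.06 to 0.35 for Gzmc, from -0.12 to 0.36 for Icos and from 0.28 to -0.13 for Anxa1.

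In bulk, all 91 named calls kept their direction, and 132 of 819 recomputed values lost the call. For leading genes called higher and lower in that order, DESeq2 gave 7 and 19 for trNK-T against trNK-D, 8 and 4 for trNK-D against trNK-V, 2 and 5 for gd8.5 against virgin, 4 and 2 for IL-21 in the inhibitor culture, 3 and 3 for the inhibitor, and 1 higher in the time course. With limma-voom 2 were higher in trNK-T than in trNK-D. Without the RPKM filter the numbers were 25 higher for trNK-T against trNK-V, 20 and 25 against trNK-D, 12 and 8 for trNK-D against trNK-V, 9 and 10 for gd8.5, 7 and 1 for IL-21 in the inhibitor culture, 2 and 3 for the inhibitor, and 5 higher in the time course. With the replicate number as a block they were 4 and 16 for trNK-T against trNK-D, 1 lower for trNK-D against trNK-V, and 0 and 0 for the inhibitor. The cause was not tested.

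Leaving out 1 library at a time, where the lone library left is assumed to vary like the other groups, gave 9 to 10 higher and 17 to 25 lower for trNK-T against trNK-V, 0 to 0 and 0 to 11 against trNK-D, 0 to 1 and 0 to 0 for trNK-D against trNK-V, 0 to 6 and 0 to 13 for gd8.5, 0 to 1 and 0 to 0 for IL-21 in the inhibitor culture, 0 to 1 and 0 to 1 for the inhibitor, and 0 to 2 and 0 to 2 in the time course. The highest gd8.5 numbers were without the second virgin library.

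Over all genes, edgeR called 992 for trNK-T against trNK-V, 82 for trNK-T against trNK-D, 15 for trNK-D against trNK-V, 19 for gd8.5, 12 for IL-21 in the inhibitor culture, 123 for the inhibitor and 283 in the time course. DESeq2 called 326, 188, 164, 162, 445 and 475 in the last 6, and limma-voom 32 for trNK-D against trNK-V. With the block edgeR called 151, 25, 0, 1 and 8 in the second to the sixth of these. Deviations of same-numbered libraries from their group means correlated at -0.308 to 0.103 in the gestation series, -0.0151 to 0.411 in the subsets, -0.509 to 0.597 in the inhibitor culture and -0.396 to 0.477 in the time course.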
